A study of Homo sapiens with 6 samples.

Results

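Fatty acid desaturases and elongases set the number of double bonds and the length of the acyl chains in membrane and storage lipids. Their genes were followed here in MDA-468.shp53 cells, human breast cancer cells kept for 8 days in 3-dimensional culture. MDA-MB-468, to which the name of the line refers, is an established basal-like breast carcinoma line, and the cells carry a short hairpin RNA (shRNA). Cells of the +DOX group received doxycycline, which turns on hairpins of this inducible type, and cells of the -DOX group did not. All arrays come from the same hairpin line, no dose of doxycycline is given in the sources used here, and cells given the drug but carrying no hairpin were not analysed here, which means that drug and hairpin cannot be told apart. The 2 groups had 3 arrays apiece, paired in 3 independent experiments, on an Affymetrix gene-level chip. A member was any probe set (the group of probes summarised for a transcript) outside the array's controls whose gene symbol was FADS1, FADS2, FADS3, SCD, SCD5, ELOVL1, ELOVL4, ELOVL5, ELOVL6 or ELOVL7. The rule found 11 probe sets for these 10 genes, out of 28026 tested, because SCD had a pair.

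Desaturases are iron enzymes of the endoplasmic reticulum that insert a double bond into an acyl-CoA with electrons from cytochrome b5. SCD and its paralog SCD5 make monounsaturated from saturated chains, and FADS2 and FADS1 act in turn on the essential fatty acids of the diet to give arachidonic, eicosapentaenoic and, further on, docosahexaenoic acid. The ELOVL enzymes catalyse the condensing step that lengthens a chain, ELOVL6 on palmitate, ELOVL5 on polyunsaturated chains, ELOVL1 and ELOVL7 on saturated chains and ELOVL4 on very long ones. Many of these genes, with those of fatty acid synthesis, are textbook targets of the sterol regulatory element-binding proteins (SREBPs), which commonly act next to the CCAAT-binding factor NF-Y.

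The promoters of the 3 desaturases that changed most and of FADS3, a neighbour of FADS1 and FADS2 that did not pass the test, are shown for comparison. Each window holds 300 bases, 250 before and 50 after a transcript start in RefSeq (GRCh38.p14), 5′ to 3′ on the strand of the gene, with the CCAAT box on either strand in capitals. The windows are chr11:61816154-61816453 (plus strand) for FADS2, chr11:61816954-61817253 (minus strand) for FADS1, chr10:100346983-100347282 (plus strand) for SCD and chr11:61891496-61891795 (minus strand) for FADS3. FADS2 has 2 windows in the set used, both at starts that lie inside the span of FADS1, and the one further downstream is printed. No window at a FADS2 start outside that span was available, so the motif counts below say nothing of such starts.
FADS2: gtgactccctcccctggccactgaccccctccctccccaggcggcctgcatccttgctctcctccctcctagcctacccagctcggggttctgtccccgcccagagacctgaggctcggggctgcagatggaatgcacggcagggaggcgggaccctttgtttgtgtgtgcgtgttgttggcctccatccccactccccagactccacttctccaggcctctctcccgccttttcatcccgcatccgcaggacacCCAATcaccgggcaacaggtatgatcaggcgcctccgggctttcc
FADS1: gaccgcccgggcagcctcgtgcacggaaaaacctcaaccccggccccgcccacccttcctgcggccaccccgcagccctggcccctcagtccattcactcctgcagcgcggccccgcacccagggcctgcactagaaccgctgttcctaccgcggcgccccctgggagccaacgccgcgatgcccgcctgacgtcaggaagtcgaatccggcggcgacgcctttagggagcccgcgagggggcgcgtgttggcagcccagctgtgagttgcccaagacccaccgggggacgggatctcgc
SCD: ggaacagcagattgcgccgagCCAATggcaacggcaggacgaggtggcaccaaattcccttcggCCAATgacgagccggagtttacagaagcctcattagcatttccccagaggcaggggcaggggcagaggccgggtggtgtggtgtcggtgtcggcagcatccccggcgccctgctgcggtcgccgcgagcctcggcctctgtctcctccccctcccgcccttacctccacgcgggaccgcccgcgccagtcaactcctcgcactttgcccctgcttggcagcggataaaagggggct
FADS3: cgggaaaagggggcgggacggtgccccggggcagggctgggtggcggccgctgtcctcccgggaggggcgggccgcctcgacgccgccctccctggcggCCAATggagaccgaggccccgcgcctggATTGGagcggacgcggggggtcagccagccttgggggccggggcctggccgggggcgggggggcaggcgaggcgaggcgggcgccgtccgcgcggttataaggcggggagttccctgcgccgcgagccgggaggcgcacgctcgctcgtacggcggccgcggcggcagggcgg

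CCAAT was present in 7 of the 11 promoter windows of the 10 genes, against 34.6% of all 35116 promoter windows. SCD held it at -229 and -186 from the start and FADS3 at -151 and -123, FADS2 held it at position 6, and the FADS1 window had none. The GC box GGGCGG, the site of Sp1, stood in 9 of the 11 windows, against 45.0% of all. The SREBP motif TCACNCCAC was found in 0 of the 11 windows and in 1.13% of all, each motif being searched on both strands. The CCAAT and GC boxes did not overlap in the 4 windows printed. These letter matches describe the windows and are not evidence of binding.

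At a limma adjusted p under 0.05, 3580 of the 28026 probe sets changed. Of 8 epithelial genes expected in this line, EPCAM and KRT5 among them, KRT8 fell by 0.63 on the log2 scale of the deposited values (standard error (SE) 0.089, n = 3 per group) and 7 did not pass. The mean of the 8 lay between 12.25 and 12.47 on each array. At an unadjusted limma p under 0.05, 2 of the 8 were lower (KRT8 and KRT19, the latter by -0.37). In the other direction, 2 were higher (EGFR by 0.22 and KRT17 by 0.24). Marker lists of adipocytes (7 genes), fibroblasts (6) and leukocytes or endothelium (7) had 0 genes past the limma threshold (0, 0 and 2 at an unadjusted p under 0.05), and their means lay between 6.35 and 6.80. All 8 proliferation markers fell, with means of 10.39 to 10.48 without and 9.68 to 9.84 with doxycycline, but 4 passed without experiment 2 and 5 without experiment 3. Their part in the lipid gene results was not tested.

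Of the 11 probe sets, 6 fell with doxycycline by limma, 0 rose (also 0 at an unadjusted p under 0.05) and 5 did not pass. Of all probe sets 6.63% fell and 6.14% rose, a balance that turned with array medians made equal (1565 fell and 1906 rose). Ranked by unadjusted limma p, number 6553 of 28026 probe sets had 0.0429 and number 7231 had 0.059, so 0.05 lay between them. That range, and not 6.63% or 6.14%, stands beside the unadjusted counts of the lists, and it was not split by direction. The methods' t-test, paired by experiment, called at its 1% level 3 of the 11 (FADS2, FADS1 and ELOVL1) and 4.16% of all. Treated values lay below all untreated values for 9 of the 11, against 13.5% of all probe sets, and the change was negative in all 3 experiments for the same number, against 23.0%. The median change of the 11 was -0.40, beside -0.01 for all probe sets. In RNA from whole cultures, fewer cells of a type and less RNA per cell cannot be told apart.

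**Figure D1:**
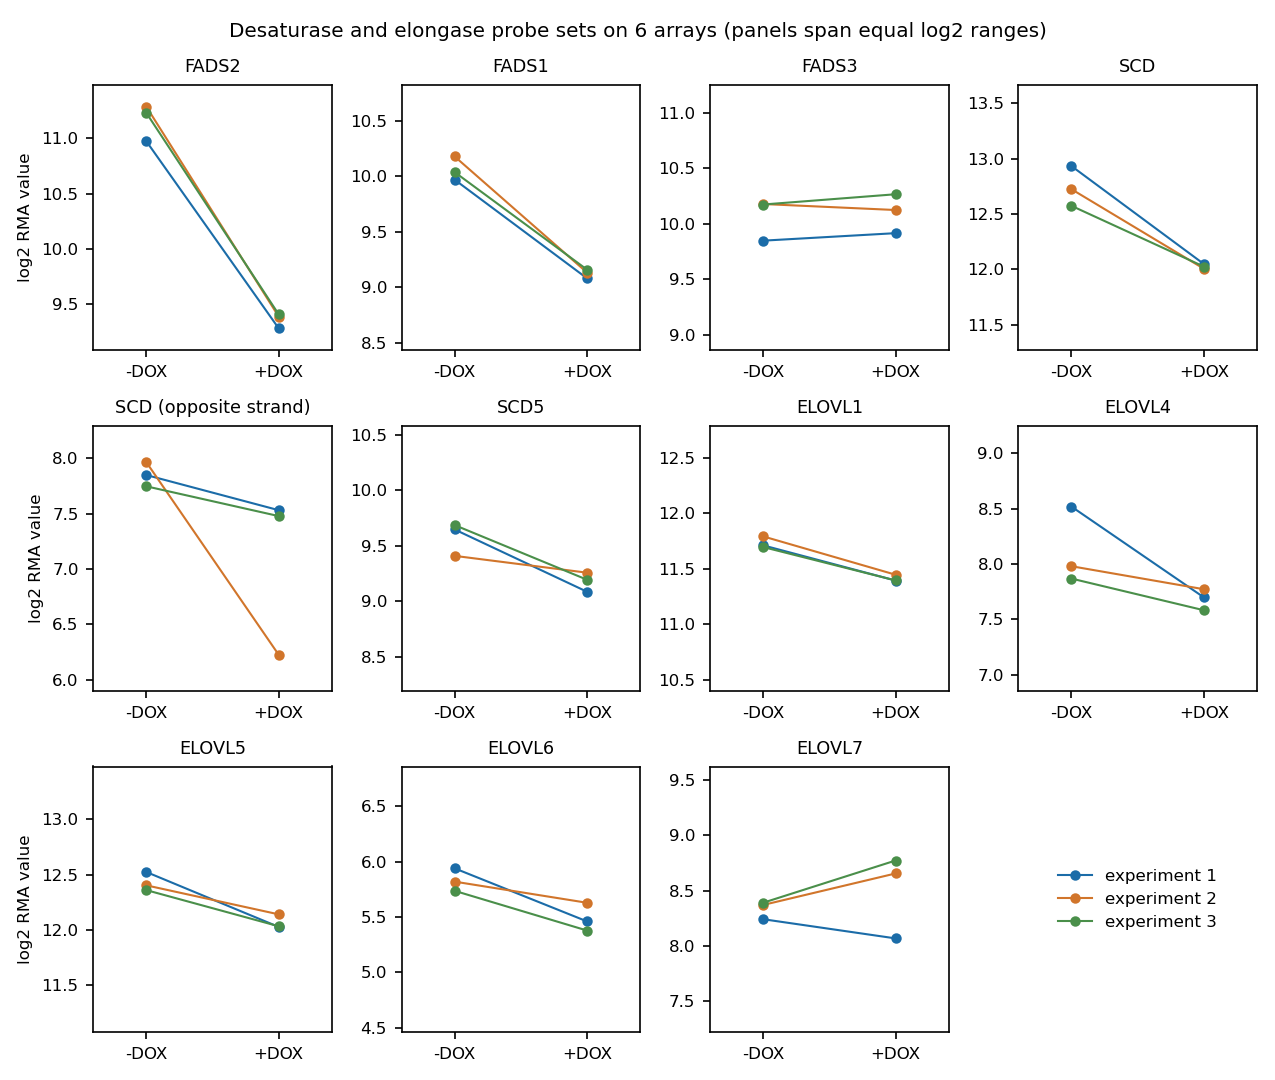
Deposited log2 value (y axis) of each of the 11 probe sets in the -DOX and +DOX arrays (x axis), with a line joining the 2 arrays of an experiment and y axes of equal span. FADS2 stood between 9.28 and 9.41 with doxycycline and at 10.97 or more without it. FADS3 stayed between 9.85 and 10.27 on all arrays. The opposite-strand SCD probe set dropped by 1.74 in experiment 2, against 0.32 and 0.27 in experiments 1 and 3.

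FADS2, the delta-6 desaturase that starts polyunsaturated fatty acid synthesis, had the largest change of the group. It read 10.97, 11.29 and 11.23 without doxycycline and 9.28, 9.39 and 9.41 with it. The treated arrays lay within 0.13 of each other, and a gap of 1.56 separated the groups. FADS2 fell by 1.80 (SE 0.086, 95% interval -2.00 to -1.60, limma adjusted p = 0.000163), to 28.7% of its untreated level. Ranked by change from the lowest, it was number 54 of 28026 probe sets, and by p number 12.

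FADS1, the delta-5 desaturase that acts later in the same route, read 9.97, 10.18 and 10.04 without doxycycline and 9.08, 9.13 and 9.16 with it. The groups were 0.81 apart at their closest. FADS1 fell by 0.94 (SE 0.085, 95% interval -1.14 to -0.74, limma adjusted p = 0.00106), to 52.1%. FADS3, which acts on sphingoid bases, read 9.85, 10.18 and 10.17 without doxycycline and 9.91, 10.12 and 10.27 with it. Its groups overlapped, it was higher in 2 of 3 experiments, and its change was 0.04 (SE 0.084, 95% interval -0.16 to 0.23, limma adjusted p = 0.894). That interval leaves out changes of the size seen in FADS1 or FADS2. Experiment 1 was the lowest of its group for each of these 3 genes, with and without the drug.

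SCD, the stearoyl-CoA desaturase that makes oleate, had a probe set along its own strand with 14 probes. It read 12.93, 12.72 and 12.57 without doxycycline and 12.05, 12.00 and 12.02 with it. The untreated arrays were spread over 0.36, whereas the treated arrays agreed within 0.05. SCD fell by 0.72 (SE 0.095, 95% interval -0.94 to -0.50, limma adjusted p = 0.00395), to 60.8%, with drops of 0.88, 0.72 and 0.55 in experiments 1 to 3. This probe set was brighter on average than 99.1% of all probe sets tested.

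The other SCD probe set, with 15 probes, is placed on the opposite strand over 381 bases, and its end lies 30 bases inside the end of the SCD span. It read 7.85, 7.97 and 7.75 without doxycycline and 7.53, 6.23 and 7.48 with it. Only the treated array of experiment 2 stood far from the rest. The change was -0.78 (SE 0.26, limma adjusted p = 0.108), and without experiment 2 it was -0.29 (adjusted p = 0.221). It was kept apart from the sense probe set, since probes on that strand do not read SCD messenger RNA.

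SCD5, the paralog of SCD, read 9.65, 9.41 and 9.69 without doxycycline and 9.08, 9.26 and 9.19 with it. Experiment 2 had the smallest drop, 0.15, against 0.56 and 0.49 in experiments 1 and 3, and the groups did not overlap. SCD5 fell by 0.40 (SE 0.1, 95% interval -0.65 to -0.16, limma adjusted p = 0.0447). The call was lost without experiment 1 (adjusted p = 0.189) or 3 (0.193) and with array medians made equal (0.0564).

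The elongases changed less than FADS2, FADS1 and SCD. ELOVL5, the elongase of polyunsaturated chains that works between FADS2 and FADS1, read 12.52, 12.40 and 12.36 without doxycycline and 12.03, 12.14 and 12.03 with it. It fell by 0.36 (SE 0.088, 95% interval -0.57 to -0.16, limma adjusted p = 0.0366), to 77.8%, and the groups did not overlap. ELOVL1, which lengthens saturated chains for sphingolipids, read 11.71, 11.79 and 11.70 without doxycycline and 11.39, 11.45 and 11.40 with it. Its drops were nearly alike in the 3 experiments, at 0.32, 0.35 and 0.30. ELOVL1 fell by 0.32 (SE 0.081, 95% interval -0.51 to -0.13, limma adjusted p = 0.0405), to 80.0%. Both calls were lost when any experiment was left out (adjusted p from 0.0894 to 0.162 for ELOVL5 and from 0.118 to 0.191 for ELOVL1) and with array medians made equal (0.0637 and 0.0764).

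ELOVL6, which takes palmitate to stearate, was the dimmest member, brighter than 23.4% of all probe sets. It read 5.94, 5.82 and 5.74 without doxycycline and 5.46, 5.63 and 5.38 with it. The groups did not overlap, but its change of -0.34 (SE 0.091, 95% interval -0.56 to -0.13) just missed the threshold (limma adjusted p = 0.0501). ELOVL4, the elongase of very long chains known from retina and skin, read 8.52, 7.98 and 7.87 without doxycycline and 7.70, 7.77 and 7.58 with it. The untreated array of experiment 1 stood above the other two, and the differences were -0.82, -0.21 and -0.29. The ELOVL4 change was -0.44 (SE 0.13, 95% interval -0.74 to -0.14, limma adjusted p = 0.0681), and without experiment 1 it was -0.25 (adjusted p = 0.246). With the trended and robust variance both passed (adjusted p = 0.0426 for ELOVL6 and 0.0473 for ELOVL4).

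ELOVL7, another elongase of saturated chains, read 8.24, 8.37 and 8.39 without doxycycline and 8.07, 8.66 and 8.77 with it. It was lower in experiment 1, by 0.17, and higher in experiments 2 and 3, by 0.28 and 0.38. The groups overlapped and the change was 0.16 (SE 0.12, 95% interval -0.12 to 0.44, limma adjusted p = 0.516). ELOVL7 and FADS3 were the members with positive changes.

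**Figure D2:**
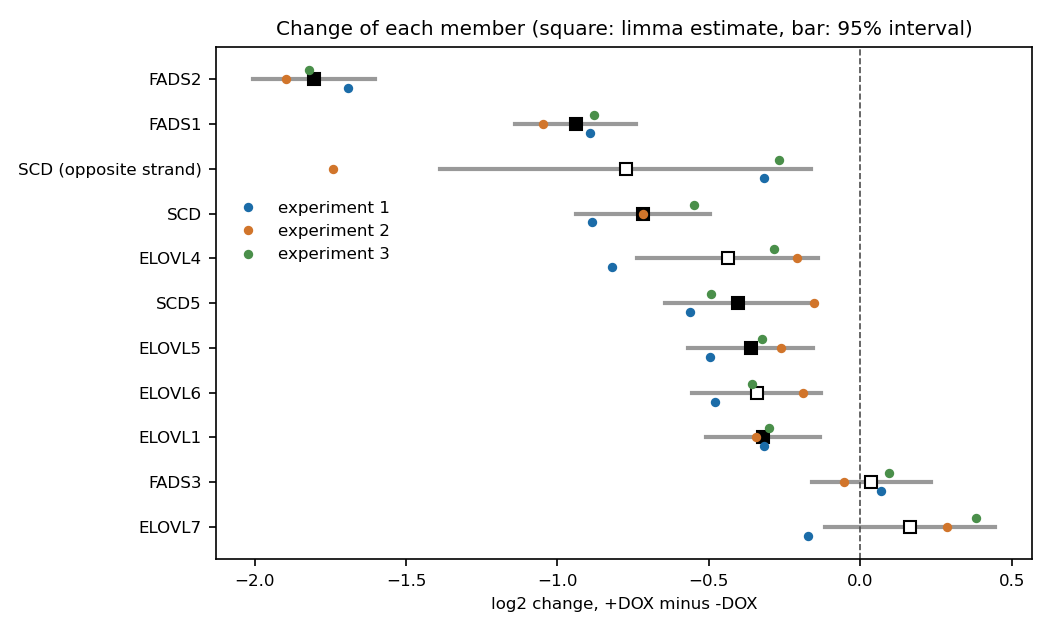
Log2 change with doxycycline (x axis) of each member (y axis), with coloured points for the 3 experiments, a square for the limma estimate (filled where the adjusted p was under 0.05) and a bar for its 95% interval. The FADS2 interval, -2.00 to -1.60, does not meet that of any other member, while the intervals from ELOVL4 to ELOVL1 overlap.

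Because probes of different genes bind with different strength, levels were not ranked between members, and the order below is that of the log2 changes. FADS2 changed more than each of the other 10 probe sets in all 3 experiments. Its drop exceeded that of FADS1 by 0.80, 0.85 and 0.94. Over 3 experiments an exact two-sided sign-flip test cannot give a p below 0.25, which was the value for this pair, as for many of the 55 pairs. FADS1 in turn dropped more than sense SCD by 0.01, 0.33 and 0.33, so experiment 1 hardly separated them. SCD dropped more than ELOVL5 by 0.39, 0.46 and 0.22. Below SCD the order was not stable, since ELOVL4, SCD5, ELOVL5, ELOVL6 and ELOVL1 followed each other with mean differences of 0.02 to 0.04 between neighbours, and none of these neighbours kept its place in all 3 experiments.

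FADS1, FADS2 and FADS3 lie side by side on chromosome 11 (NCBI build 36 by the chromosome accessions of the file). The probe sets span chr11:61323673-61341039 on the minus strand for FADS1, chr11:61340325-61391401 on the plus strand for FADS2 and chr11:61397574-61415582 on the minus strand for FADS3. FADS1 and FADS2 are read away from each other and their spans share 715 bases at the 5′ ends, so probes in that stretch could meet transcripts of either gene only if they bind regardless of strand. A gap of 6172 bases separates the FADS2 span from that of FADS3, whose 3′ end faces FADS2. The FADS3 change differed from that of FADS1 by 0.96, 0.99 and 0.97 in the 3 experiments. Of the 8 neighbours measured, 2 fell, 2 rose and 4 did not pass. The share of all probe sets that passed was 12.8%.

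Next to FADS1, the nuclease gene FEN1 (-0.34, SE 0.11, limma adjusted p = 0.0848), TMEM258, a subunit of oligosaccharyltransferase (-0.23, SE 0.087), and MYRF, a myelin gene regulator (-0.18, SE 0.13), did not pass. Further out on that side, DAGLA, which makes the endocannabinoid 2-arachidonoylglycerol, fell by 0.45 (SE 0.097) and the synaptotagmin gene SYT7 by 0.38 (SE 0.093). Beyond FADS3, RAB3IL1, an exchange factor for Rab proteins, rose by 0.53 (SE 0.1) and BEST1, a chloride channel, by 0.38 (SE 0.087). FTH1, the ferritin heavy chain, had a change of 0.35 (SE 0.11, limma adjusted p = 0.0797), and its value is uncertain because of its many processed copies. Leaving out experiments ended each of the 4 calls among these neighbours (highest adjusted p 0.0835 for RAB3IL1, 0.113 for DAGLA, 0.166 for BEST1 and 0.196 for SYT7), and those of RAB3IL1 and SYT7 were also lost without the experiment term (0.0516 and 0.187).

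**Figure D3:**
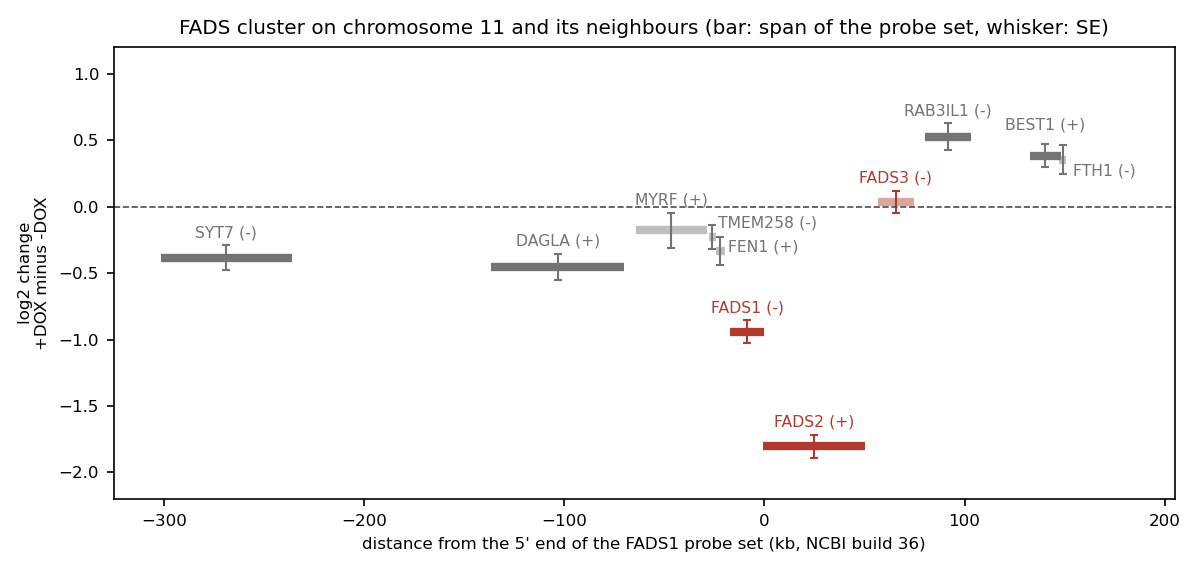
Log2 change with doxycycline (y axis) against distance in kilobases from the 5′ end of the FADS1 probe set (x axis), with a horizontal bar for the span of each probe set, its strand in brackets, a whisker for the SE, members in red and pale bars for genes that did not pass. FADS1 (-0.94) and FADS2 (-1.80) lie below all 8 neighbours, which range from -0.45 to 0.53, and FADS3 (0.04) lies among them.

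Relatives outside the member list were read from the same fit. ELOVL2, which lengthens long polyunsaturated chains on the way to docosahexaenoic acid, read 7.19, 7.18 and 7.24 without doxycycline and 6.72, 6.86 and 6.56 with it, and fell by 0.49 (SE 0.097, limma adjusted p = 0.017). ELOVL3, known from skin and brown fat, fell by 0.51 (SE 0.097, limma adjusted p = 0.0143). Both calls were lost without experiment 1 or 3 (adjusted p up to 0.0902 and 0.0851), while FADS6 (-0.07, SE 0.096) did not pass. The sphingolipid desaturases DEGS1 (-0.41, SE 0.13, limma adjusted p = 0.0784) and DEGS2 (-0.11, SE 0.084) did not pass either.

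The elongase step is followed by a reduction, a dehydration and another reduction. Of the 6 genes for these steps, limma called 1 lower and 0 higher (1 at an unadjusted p under 0.05), and 5 did not pass, with a median of -0.12. Of all probe sets it called 6.63% lower and 6.14% higher. TECR, the last reductase of the cycle, read 12.81, 12.91 and 12.96 without doxycycline and 12.25, 12.26 and 12.32 with it, a fall of 0.62 (SE 0.082, limma adjusted p = 0.00399). Among 7 genes of the cytochrome b5 and reductase families, which include the electron carriers of desaturases, 3 fell and 0 rose by limma. The list had 1 rise at an unadjusted p under 0.05 and a median of -0.14. CYB5A, microsomal cytochrome b5, fell by 0.69 (SE 0.093), its reductase CYB5R3 by 0.56 (SE 0.082) and CYB5B, the outer mitochondrial form, by 0.43 (SE 0.099). The CYB5B call was lost when any experiment was left out (adjusted p up to 0.132).

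Genes that supply the substrate were read next, in the fit that called 6.63% of all probe sets lower and 6.14% higher. Of 10 genes from cytosolic acetyl-CoA to palmitate, 6 fell, 3 did not pass and 1 rose, and their median was -0.51. Falls numbered 4 without the experiment term and 3 without experiment 2. The gene that rose, named after its values were seen, was the malic enzyme gene ME1 (0.73, SE 0.13), and this list had 0 rises by limma without the experiment term or without experiment 3, against 2 in the full fit at an unadjusted p under 0.05. The fatty acid synthase FASN fell by 1.37 (SE 0.11), ACLY, which splits citrate, by 0.85 (SE 0.082), ACACB, an acetyl-CoA carboxylase, by 0.56 (SE 0.087) and ACSS2, which activates acetate, by 0.53 (SE 0.09). The other acetyl-CoA carboxylase gene of the list, ACACA, named after its values were seen, did not pass. Its change was -0.25 (SE 0.083, limma adjusted p = 0.105), and its groups overlapped. The ACSS2 call was lost without experiment 2 (adjusted p = 0.0534). Of 13 acyl-CoA synthetase and transporter genes 3 fell and 0 rose by limma (0 at an unadjusted p under 0.05), with a median of -0.10. ACSL4, which prefers arachidonic acid, read 9.12, 9.16 and 8.97 without doxycycline and 7.76, 8.03 and 8.11 with it, a fall of 1.12 (SE 0.11, limma adjusted p = 0.0014). ACSL3 (-0.47, SE 0.091) and SLC27A3 (-0.39, SE 0.093) also passed, but not without experiment 2 or 3 (adjusted p up to 0.0975 and 0.16), and ACSL3 not without the experiment term (0.13).

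Of 15 regulators, limma called 2 lower and 1 higher, against 6.63% and 6.14% of all probe sets. At an unadjusted p under 0.05 the balance turned to 2 lower and 4 higher, and the median over the 15 was 0.09. Between 6553 and 7231 of the 28026 probe sets passed at that unadjusted level, in either direction. INSIG1, an SREBP target whose protein retains SREBPs at the endoplasmic reticulum, read 11.03, 10.80 and 10.79 without doxycycline and 9.35, 9.22 and 9.38 with it, a fall of 1.55 (SE 0.09). SREBF1, the gene for SREBP-1, fell by 0.41 (SE 0.1, limma adjusted p = 0.0426) with groups that overlapped, and the call was lost without the experiment term (0.234), without experiment 2 or 3 (up to 0.214) and with equal array medians. SREBF2, chosen after its values were seen as the partner gene, had a change of 0.09 (SE 0.098, limma adjusted p = 0.727). The nuclear receptor gene PPARG, a regulator of fat storage, read 6.97, 7.41 and 7.60 without doxycycline and 7.49, 8.83 and 8.98 with it, a rise of 1.10 (SE 0.17, limma adjusted p = 0.0072) with groups that overlapped. That call was lost without the experiment term (0.131) or without experiment 3 (0.0665).

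**Figure D4:**
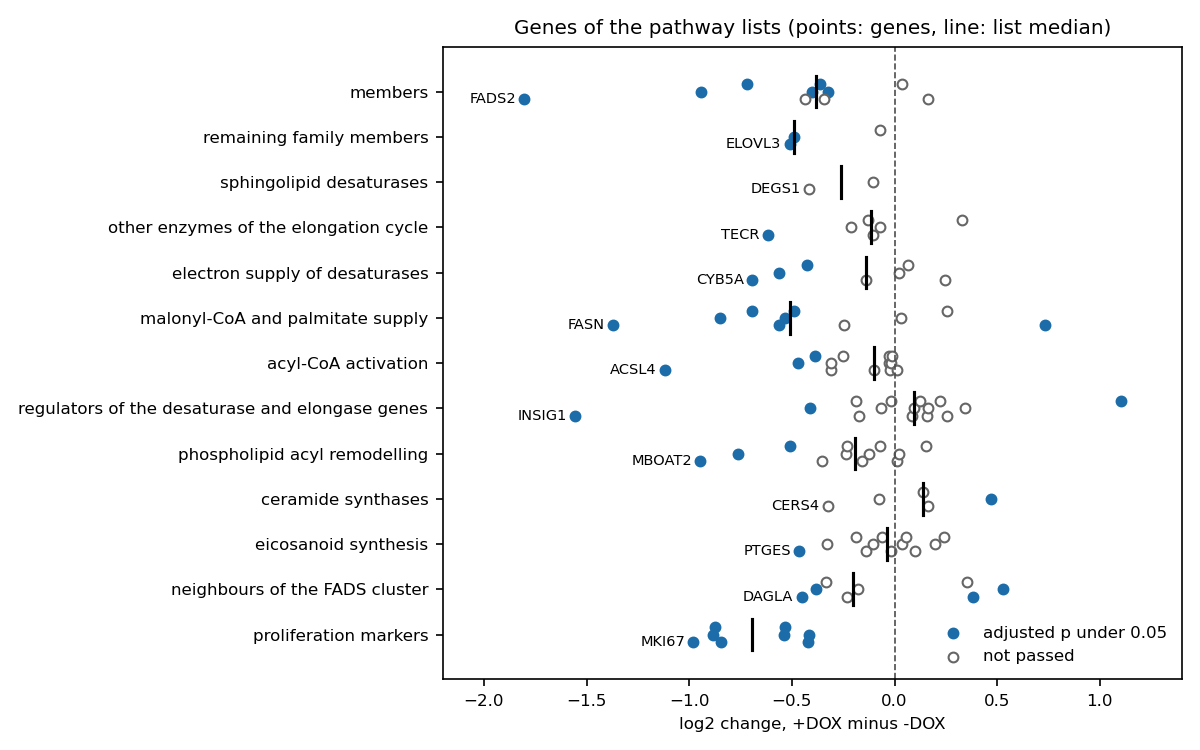
Log2 change with doxycycline (x axis) of each gene in the lists around the desaturases and elongases (y axis), filled where the limma adjusted p was under 0.05, with a line at each list's median and the gene with the lowest change named. The member list (median -0.38 over 10 genes, without the opposite-strand probe set) and the palmitate supply list (-0.51) lie mostly below 0, and the regulators (0.09) lie on either side of it.

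Over the 6 arrays, centred per probe set, Euclidean distances to FADS2 were taken for named genes outside the members. The 5 smallest were those of KYNU (0.157), VGLL1 (0.259), CNIH2 (0.27), ETV1 (0.287) and PCLAF (0.37). KYNU encodes kynureninase, VGLL1 a partner of TEAD factors and CNIH2 an auxiliary protein of glutamate receptors. ETV1 encodes an ETS transcription factor and PCLAF a PCNA-binding protein. KYNU changed by -1.92 and ETV1 by -1.64, the bounds of the changes among these 5. FADS1 had nearly the same shape as FADS2 over the 6 arrays (Pearson r 0.998) but a smaller size (distance 1.07). These likenesses share the arrays and the doxycycline contrast, and are given as a description.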

How the data were processed

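Total RNA of 6 cultures was hybridised to Affymetrix gene-level arrays. The log2 values deposited by the authors come from the Robust Multichip Average (RMA) in R 2.11.1, per the submitters' processing notes. RMA evens out the distributions of the arrays, so a difference in total RNA cannot be read from its values. The evening was not exact over the probe sets tested. Their array medians ran from 7.45 (+DOX, experiment 3) to 7.56 (-DOX, experiment 3), and making the medians equal raised each change by 0.04. A deposited workbook gives the same log2 values (largest difference 5.0e-09), gene symbols and positions, the build being not given in the sources used here beyond its chromosome accessions. Of 33297 probe sets, 4428 controls and 976 without values (some are both) were left out, and 28026 were tested with no filter on dim ones. Names came from RefSeq accessions, then symbols (21151 probe sets). List genes were represented by their brightest probe set, and neighbours of the FADS cluster by that on chromosome 11.

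Treated and untreated arrays were compared in limma 3.58.1 under R 4.3.3 (lmFit, eBayes) with the experiment as a block, since the design text of the series describes 3 experiments and a paired test, and with Benjamini-Hochberg adjustment over all 28026. Between the 2 arrays of experiments 1, 2 and 3, deviations from the group mean had correlations of 0.482, 0.165 and 0.0993. The fit was tested on simulated data of 28026 probe sets with 67 changes each of 0.5, 1 and 2, under 3 choices of simulated spread tried one after another. The simulated arrays had no effect shared by the 2 arrays of an experiment. Far fewer of their probe sets changed than the 12.8% called here, so the simulated shares of false calls need not hold for these data. A criterion written first (over 60 of the 67 changes of 2 recovered, fewer than 30 false calls) was missed by the first 2 and met by the last; the false-call part was also loosened, to under 10% of calls, when the last was tried, although it meets either form. With the residuals of each probe set as spread, 0, 34 and 59 of 67 were recovered and 2 of 95 calls were false. With limma's moderated variances these were 55, 67 and 67, and 32 of 221 calls (14.5%) were false. With variances drawn from limma's own prior, the choice kindest to limma, they were 16, 64 and 67, and 11 of 158 (6.96%) were false. The share of false calls at an adjusted p under 0.05 can thus exceed 5%, which bears most on the calls just under the threshold (ELOVL5, ELOVL1 and SCD5). Arrays have no read depth, so their number limits the precision. Changes are treated minus untreated, with moderated SE. The members, lists and tests were chosen with earlier results of these data known. Named were each member, all FADS neighbours, up to 4 called genes with the smallest p per list (the lowest 2 where none was called) and the 5 genes most like FADS2. FADS6, ME1, ACACA and SREBF2 were named outside this rule. Proliferation and cell type marker lists were instead given as counts and means, with only KRT8, EPCAM, KRT5, KRT19, EGFR and KRT17 named. Alternatives were the fit without the block, each experiment left out, another variance model, 2 scalings, a filter on dim probe sets and the methods' t-test. The hairpin's target and the list of peroxisomal genes are not reported here.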

Additional observations from a re-analysis of the deposited data

How the results depend on the processing

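FADS2, FADS1 and SCD kept direction and call in each limma alternative tried: no experiment block, an experiment left out, trended and robust variance, equal array medians, repeated quantile normalization and the dimmest 25% of probe sets left out. With an experiment left out the changes ranged from -1.86 to -1.76 for FADS2, -0.97 to -0.89 for FADS1, -0.80 to -0.63 for SCD, -0.53 to -0.32 for SCD5, -0.41 to -0.29 for ELOVL5 and -0.33 to -0.31 for ELOVL1, with 3 to 4 member calls and 1355 to 2853 over all probe sets. Of those called, 51.9% fell in the full fit, 66.3% without experiment 3 and 45.1% with equal array medians. ELOVL4 ranged from -0.55 to -0.25 with an experiment left out. Without the experiment block 2409 probe sets passed, with the same 6 member calls. With equal array medians 3 members passed, with ELOVL1 at -0.28, SCD5 at -0.36 and ELOVL5 at -0.32 no longer called. ELOVL6 (-0.34) and ELOVL4 (-0.44) were gained with the trended and robust variance, and ELOVL4 (-0.44) and opposite-strand SCD (-0.78) without the dimmest 25%, which tests fewer probe sets and leaves ELOVL6 without a value. The methods' t-test at the 1% level called 1165 probe sets and 3 members (FADS2, FADS1 and ELOVL1), not SCD (-0.72), SCD5 (-0.40) or ELOVL5 (-0.36). After Benjamini-Hochberg it called 0 of either, also not FADS2 (-1.80), FADS1 (-0.94) or ELOVL1 (-0.32), with 5 members at an unadjusted p under 0.05. No member reversed in the 109 values computed. Only the fits with an experiment left out and the 2 scalings could reverse a sign, since the other alternatives keep the estimate of the full fit. Of the 190 list counts, 32 moved by over 1.5 times. The cause was not tested unless stated.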

Other observations

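Genes that act on the products of desaturases and elongases were read from the same fit, in which 6.63% of all probe sets fell. Of 12 genes that insert acyl chains into phospholipids or release them, 3 fell and 0 rose by limma (6 and 0 at an unadjusted p under 0.05), with a median of -0.19. At that unadjusted level between 6553 and 7231 of the 28026 probe sets passed, in either direction. MBOAT2, an acyltransferase that favours oleate, read 12.09, 11.81 and 11.74 without doxycycline and 11.27, 10.78 and 10.74 with it, a fall of 0.95 (SE 0.087, adjusted p = 0.00115). LPCAT3, which puts polyunsaturated chains into phosphatidylcholine, fell by 0.76 (SE 0.084), and LPCAT2 by 0.51 (SE 0.1), a call lost without experiment 1 or 3 (adjusted p up to 0.0921). Of 12 eicosanoid genes limma called 1 lower, near the share of all probe sets, and 0 higher (2 and 1 at an unadjusted p under 0.05). It was the prostaglandin E synthase gene PTGES, which fell by 0.46 (SE 0.081), but not without experiment 2 or 3 (up to 0.0555).

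Of all probe sets 6.14% rose. Of 5 ceramide synthases measured, limma called 0 lower and 1 higher (1 and 1 at an unadjusted p under 0.05). The latter was CERS6, which prefers palmitoyl-CoA, with 10.72, 10.54 and 10.63 without doxycycline and 11.06, 11.16 and 11.08 with it, a rise of 0.47 (SE 0.091) that was lost without experiment 2 or 3 (adjusted p up to 0.0969).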
